A study of Mus musculus with 168 samples.

Results

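Natural killer (NK) cells sorted from the spleens of mice that had received the JAK inhibitor SB00526221 14 or 15 times were set against NK cells of mice given vehicle on the same schedule. The members were picked by their labels, as spleen NK arrays whose source name carries SB00526221 or the plain vehicle with 14 or 15 treatments. Earlier results of these data were known when they were picked. They are 7 arrays of SB00526221 and 3 arrays of vehicle, 10 of the 27 spleen NK arrays fitted here, and they come from 10 animals.

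The series profiles sorted immune cells of male C57BL/6 mice, aged 6 weeks, on Affymetrix Mouse Gene arrays after gavage with JAK inhibitors. The labels name the inhibitors by code, and no dose was found in them. The SB00526221 arrays were J2 replicates 1 and 2 (14 treatments, 14 h after the last), J6 replicates 3 and 4 (15 treatments, 15 h) and J8 replicates 5, 6 and 7 (14 treatments, at 14, 17 and 14 h), where J2, J6 and J8 are the experiments named in the titles. The vehicle arrays, from mice given 0.5% MC, were J2 replicates 1 and 2 and J6 replicate 3, with the same treatments and hours as the inhibitor arrays of their experiment. J8 held no vehicle array of NK cells. The cells were sorted as NK1.1+ with no exclusion marker given in the labels, so other NK1.1+ lymphocytes can be among them. Each array stands for 1 animal, and the small number of arrays limits the precision. The p-values reflect only how the animals in a fit vary. The main fit also holds NK arrays of other compounds and of another schedule. Its spread is therefore not that of the SB00526221 and vehicle animals alone. Median intensities of the NK arrays were 119.5 to 138.3. In such bulk samples, fewer cells of a type and less RNA per cell cannot be told apart.

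NK cells are lymphocytes that kill infected or transformed cells without prior priming, and they release interferon-gamma and chemokines. Their survival depends on interleukin 15, whose receptor signals through JAK1, JAK3 and the transcription factor STAT5. Type I interferon acts through JAK1 and TYK2 and switches on antiviral genes, many of which carry the interferon-stimulated response element (ISRE) in front of their start.

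The cells carried the labelled identity. The NK receptor gene Ncr1 had log2 intensities of 13.10, 13.41 and 13.60 as lowest, median and highest of the SB00526221 arrays, against 13.48, 13.58 and 13.55 in the vehicle arrays. The mean of 10 NK markers was 11.71 to 12.09 in SB00526221 arrays and 11.40 to 12.10 in vehicle arrays. Markers of other cells differed between arrays. The mean of 10 dendritic cell markers was 6.86 and 7.78 in the J2 SB00526221 arrays and 7.58 and 8.04 in the J2 vehicle arrays, while the other arrays of both groups lay between 6.48 and 6.91. Clec9a, a receptor of cross-presenting dendritic cells, stood at 5.84 and 8.15 in the J2 SB00526221 arrays and at 8.26 and 9.37 in the J2 vehicle arrays, and no other array of either group passed 5.27. The mean of 12 macrophage markers was highest in SB00526221 replicate 6, at 7.45 against 6.31 to 6.567 in the other inhibitor arrays and 6.31 to 6.71 in the vehicle arrays. SB00526221 replicates 5 and 6 also correlated least with the other NK arrays (median r of 0.913 and 0.915). The mean of 46 small nucleolar RNA genes was 8.52 to 10.32 in SB00526221 arrays and 8.31 to 8.735 in vehicle arrays, highest in J8. The part of these differences in the results below was not tested.

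**Figure D1:**
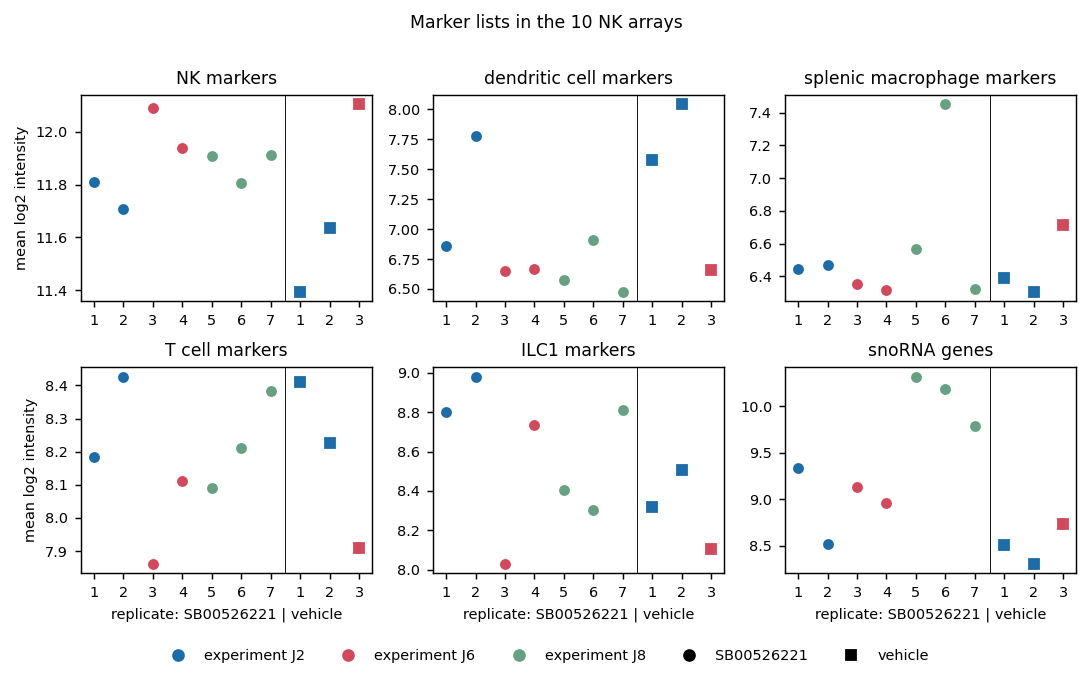
Mean log2 intensity of marker lists and of small nucleolar RNA genes in each array, with SB00526221 (circles) left of vehicle (squares) and the experiment as colour. Dendritic cell markers reached 7.78 in SB00526221 and 8.04 in vehicle, both in J2, and macrophage markers were highest in SB00526221 replicate 6 (7.45).

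The first question was which genes differ between SB00526221 and vehicle. Differences below are on the log2 scale, SB00526221 minus vehicle, from 1 limma fit on all 27 NK arrays with the experiment as a covariate. No gene of the 10957 tested passed an adjusted p of 0.05 (0% of genes), and the lowest adjusted p was 0.846. At an unadjusted p under 0.05, 394 genes lay lower (3.6% of those tested) and 133 lay higher (1.21%). These shares are the background for the member counts of the lists below. The median difference of all genes was -0.02 and the median standard error 0.15. The 7 inhibitor arrays did not weigh alike: each J2 array had a weight of 0.217, each J6 array 0.179 and each J8 array 0.0695, because J8 reached the contrast only through other compounds. Vehicle replicates 1 and 2 weighed 0.321 each, and vehicle replicate 3 weighed more. The count moved with single arrays. Without vehicle replicate 1, 140 genes lay lower and 42 higher at the unadjusted threshold. Genes past it in either direction numbered 527 in the full fit, 426 without vehicle replicate 2 and 1058 without vehicle replicate 3. With 1 inhibitor array left out, they ran from 250 without SB00526221 replicate 1 to 953 without SB00526221 replicate 4.

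J2 and J6 share no array, so each gives its own difference. Both came from a fit of all NK arrays with a mean for each group in each experiment. Tests said to be within J2 or within J6 therefore used the spread of all NK arrays. Across the 10957 genes these 2 differences correlated with a Pearson r of 0.0731 and a Spearman rho of 0.0321, as a description over genes, which are not independent replicates. The signs matched in 51.2% of genes. A test of the J2 difference minus the J6 difference called 0 genes in limma, with 171 at an unadjusted p under 0.05. In 870 genes (7.94%) every SB00526221 array lay below every vehicle array of its own experiment in both J2 and J6, and in 403 genes (3.68%) above. Values of both experiments are therefore given for the main genes below. Where groups are said below not to overlap across all their arrays, the share of all genes that do so was not counted. Such a separation therefore does not mark a gene out.

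**Figure D2:**
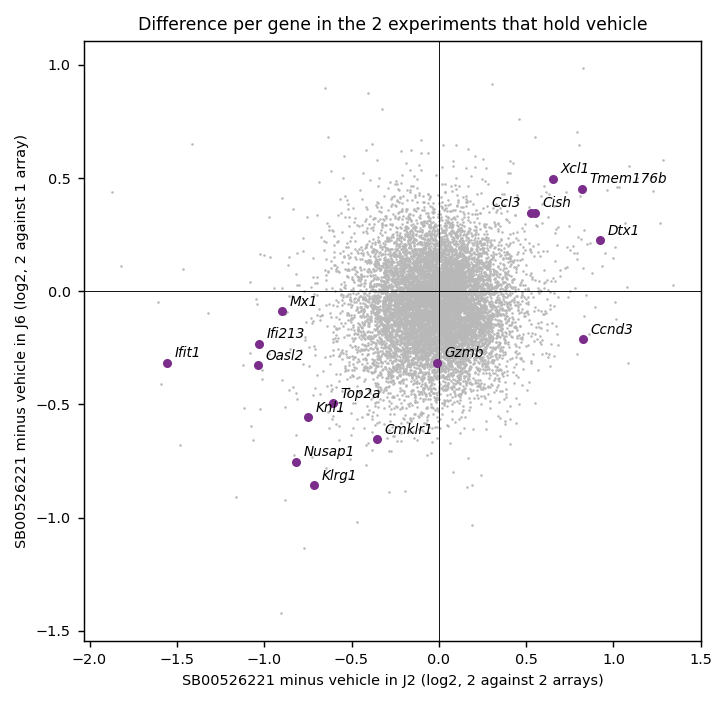
Difference SB00526221 minus vehicle of each tested gene in J2 (x axis, log2) and in J6 (y axis, log2), with named genes in purple. The cloud has hardly any slope (r of 0.0731), and Ifit1 at -1.55 and -0.32, Klrg1 at -0.71 and -0.86 and Tmem176b at 0.82 and 0.45 lie in quadrants where both experiments have the same sign.

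Genes that interferon induces lay mostly below vehicle, and vehicle replicate 1 carried much of that. Of the 57 interferon-stimulated genes listed, 38 were tested, of which 35 had a negative difference, and the median was -0.27 against -0.02 over all genes. Among the 45 with a probe set, without the filter, 41 had a negative difference and the median was -0.25. None of the 38 passed the adjusted threshold, and 11 lay lower and 1 higher at the unadjusted one. Without vehicle replicate 1 the median was -0.16 and none passed even the unadjusted threshold. The median was -0.29 within J2 and -0.13 within J6, where it is set against -0.01 and -0.06 over all genes.

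Ifit1, an antiviral protein that binds foreign RNA, had log2 intensities of 6.583, 7.10 and 7.57 (lowest, median, highest) in the SB00526221 arrays and 9.35, 7.72 and 7.60 in the vehicle arrays. All inhibitor arrays lay below all vehicle arrays, and vehicle replicate 1 stood alone at the top. The mean was 7.11 ± 0.39 (SD, n = 7) with SB00526221 and 8.22 ± 0.98 (SD, n = 3) with vehicle. The difference was -1.005 ± 0.31 (SE), a level 2.01-fold lower, with an adjusted p of 0.846 in limma. It was -0.45 without vehicle replicate 1 and -1.39 without vehicle replicate 3. Oasl2, which is related to the enzymes that sense double-stranded RNA, read 6.61, 7.04 and 7.31 in SB00526221 arrays against 8.49, 7.37 and 7.15 in vehicle arrays. Its groups overlapped, and the difference of -0.62 ± 0.23 (SE) became -0.28 without vehicle replicate 1 and -0.87 without vehicle replicate 2. Mx1, a GTPase that blocks influenza viruses, read 6.72, 6.94 and 7.29 in SB00526221 arrays against 8.14, 7.503 and 7.197 in vehicle arrays, a difference of -0.57 ± 0.18 (SE). It was -0.90 in J2 and -0.09 in J6. Ifi213, of the interferon-inducible family that senses DNA, had 7.88, 9.27 and 9.55 in SB00526221 arrays and 10.85, 10.10 and 9.59 in vehicle arrays, with no overlap and a difference of -0.84 ± 0.24 (SE). Without vehicle replicate 1 the differences were -0.32 for Mx1 and -0.54 for Ifi213, and without vehicle replicate 3 they were -0.84 and -1.19.

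Not every member did so. Ifi35, another interferon-induced protein, lay at 8.44, 8.96 and 9.28 in SB00526221 arrays and at 7.91, 8.08 and 9.01 in vehicle arrays, a difference of 0.40 ± 0.15 (SE) that was 0.59 in J2 and 0.00 in J6. Irf7, the factor that amplifies the interferon response, differed by only -0.02 ± 0.17 (SE) in the fit, but by -0.05 in J2 and -0.42 in J6. Arrays of J8 and of other compounds also enter that fit, and its value lies outside both experiments. The fits described last use only prolonged SB00526221 and vehicle arrays of NK cells and 1 other cell type. In them Irf7 lay at -0.22 beside macrophages, -0.07 beside dendritic cells and -0.19 beside CD4 T cells.

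The promoters of these genes are shown because the list is defined by interferon control. Of 29 tested list members with a promoter entry in RefSeq (build GRCm38.p6, 250 bases before to 50 after the start), 13 (44.8%) held the ISRE core (GAAA, any 2 bases, GAAA) on either strand, against 3.44% of all 32851 promoters. The STAT motif TTCNNNGAA, which reads the same on both strands and was counted once, was in 6 (20.7%) of the 29, against 8.3% of all. In the sequences below, 5′ to 3′ on the plus strand, capitals mark motif matches. The windows are chr19:34640639-34640938 for Ifit1, chr5:114896684-114896983 for Oasl2 and chr11:101448162-101448461 for Ifi35.
Ifit1: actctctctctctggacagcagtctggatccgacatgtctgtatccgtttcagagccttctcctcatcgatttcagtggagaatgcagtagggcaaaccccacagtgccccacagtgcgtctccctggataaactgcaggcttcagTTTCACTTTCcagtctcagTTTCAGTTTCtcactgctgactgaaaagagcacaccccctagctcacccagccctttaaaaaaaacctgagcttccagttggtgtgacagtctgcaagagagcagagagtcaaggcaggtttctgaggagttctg
Oasl2: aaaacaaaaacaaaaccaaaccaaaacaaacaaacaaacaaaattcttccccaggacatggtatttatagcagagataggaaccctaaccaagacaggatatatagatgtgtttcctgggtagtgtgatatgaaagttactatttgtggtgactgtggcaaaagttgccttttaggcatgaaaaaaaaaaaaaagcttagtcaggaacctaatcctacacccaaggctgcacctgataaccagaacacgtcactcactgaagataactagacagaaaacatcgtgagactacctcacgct
Ifi35: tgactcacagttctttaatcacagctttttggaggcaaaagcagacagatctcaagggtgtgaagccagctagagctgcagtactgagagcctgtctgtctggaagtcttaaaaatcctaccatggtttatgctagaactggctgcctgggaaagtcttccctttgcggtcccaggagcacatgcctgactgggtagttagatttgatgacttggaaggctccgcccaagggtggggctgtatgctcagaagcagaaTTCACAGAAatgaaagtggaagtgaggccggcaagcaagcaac
Ifit1 held 2 ISRE matches on the minus strand, 104 and 85 bases before the start. Oasl2 held neither motif in this window, and Ifi35 held 1 STAT match, 7 bases after the start. A match is a run of letters and not a measured binding site.

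The kinases themselves did not separate from vehicle. Jak1 had log2 intensities of 12.08, 12.53 and 12.77 in SB00526221 arrays and 12.49, 12.94 and 12.68 in vehicle arrays, a difference of -0.09 ± 0.14 (SE) with a 95% interval of -0.38 to 0.21. Tyk2, the partner of JAK1 at the type I interferon receptor, differed by 0.14 ± 0.20 (SE). Jak2, which serves receptors such as that of interleukin 12, differed by -0.40 ± 0.25 (SE), at -0.36 in J2 and 0.10 in J6, and its lowest values of 8.43 and 8.23 were in SB00526221 replicates 5 and 6. Stat5a and Stat5b differed by 0.00 and 0.01. Jak3 and Il2rg were not analysed here. None of the 9 tested JAK and STAT components of a list of 11 passed the unadjusted threshold. Il2rb, the signalling chain shared by the receptors of interleukins 2 and 15, differed by 0.18 ± 0.14 (SE), and none of 21 tested cytokine receptor genes passed the unadjusted threshold.

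Of 27 STAT5 targets listed, 26 were tested, of which 19 had a positive and 7 a negative difference. The median was 0.19, and 7 lay higher and 1 lower at an unadjusted p under 0.05. The median was 0.29 within J2 and 0.00 within J6, and the higher members past the unadjusted threshold numbered 2 without vehicle replicate 1 or without SB00526221 replicate 1 and 4 without vehicle replicate 2. Without vehicle replicate 3 the median was 0.35. Cish, a STAT5-induced inhibitor of cytokine receptor signalling, had 7.51, 7.75 and 8.26 in SB00526221 arrays and 6.95, 6.99 and 7.33 in vehicle arrays. Its groups did not overlap, and the difference was 0.58 ± 0.19 (SE), at 0.55 in J2 and 0.35 in J6. Pim1, a survival kinase, had 9.65, 10.35 and 10.96 in SB00526221 arrays and 8.698, 9.32 and 10.52 in vehicle arrays, with overlap. The difference was 0.59 ± 0.24 (SE), at 1.01 in J2 and -0.05 in J6, and it was 0.31 without vehicle replicate 1 and 0.94 without vehicle replicate 3. Ccnd3, a cyclin of the G1 phase, showed the same pattern, with 0.83 in J2, -0.21 in J6 and 0.56 ± 0.22 (SE) in the fit, and 0.29 without vehicle replicate 1 and 0.998 without vehicle replicate 3. Bcl6, a repressor that STAT5 holds down, read 7.42, 8.06 and 8.45 in SB00526221 arrays and 8.37, 8.631 and 8.79 in vehicle arrays. That is a difference of -0.51 ± 0.19 (SE), and it was alike in J2 (-0.50) and J6 (-0.54).

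Other STAT5 targets did not separate from vehicle. Bcl2, the survival protein that interleukin 15 maintains in NK cells, had 10.82, 11.33 and 11.53 in SB00526221 arrays and 11.28, 11.33 and 11.17 in vehicle arrays. The difference was 0.01 ± 0.24 (SE), with a 95% interval of -0.49 to 0.50. Socs2 differed by -0.02 ± 0.22 (SE) and Myc by 0.35 ± 0.24 (SE). Among 18 feedback inhibitors of cytokine signalling, Cish, Socs3 at 0.40 ± 0.17 (SE) and the phosphatase gene Ptpn6 at 0.27 ± 0.11 (SE) passed the unadjusted threshold, all higher, and the list median was -0.08.

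**Figure D3:**
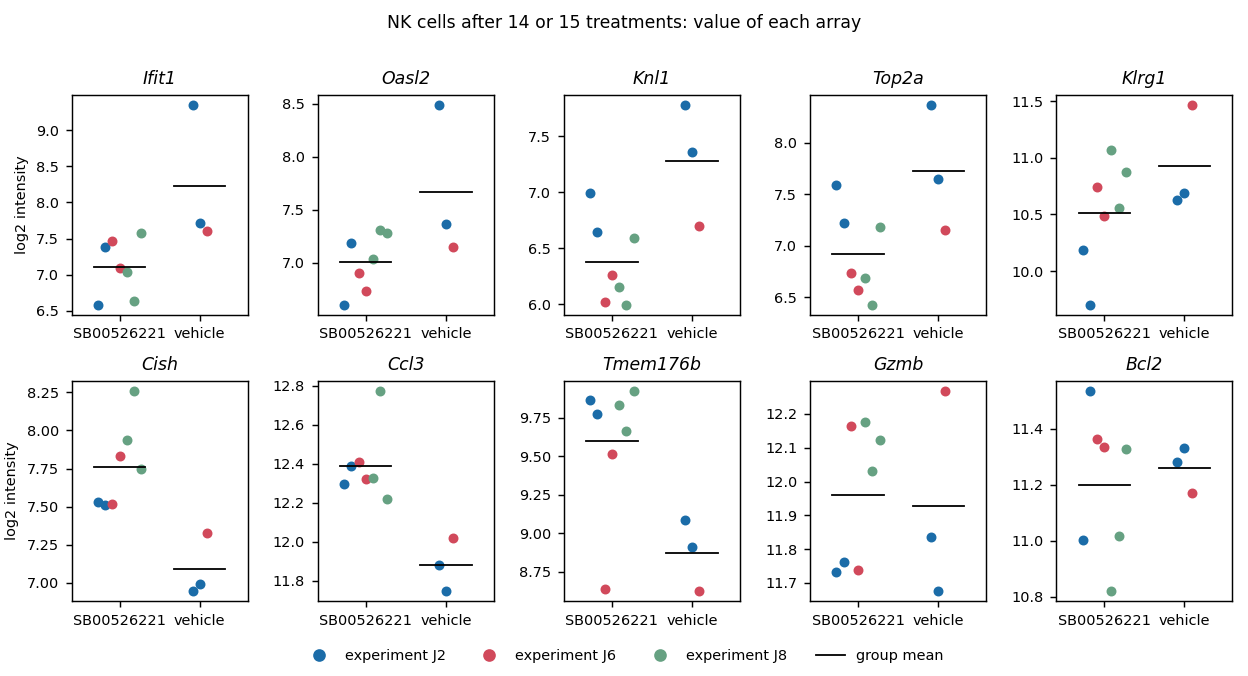
Log2 intensity of 10 genes in each array, SB00526221 left and vehicle right, with the experiment as colour and the group mean as a line. Ifit1, Cish and Ccl3 show no overlap of the groups, vehicle replicate 1 (J2) is the highest point of Ifit1, Oasl2, Knl1 and Top2a, and Bcl2 and Gzmb overlap throughout.

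Genes of NK cell maturation included some of the lowest values. Of 28 tested, 5 lay lower at an unadjusted p under 0.05 and 0 higher, while the list median was -0.06. Over all genes, 3.6% lay lower and 1.21% higher at that threshold. They were Klrg1, Zeb2, Cx3cr1, Cmklr1 and Prdm1, all of which mark or drive the late stages of NK cell development. Klrg1, an inhibitory receptor of mature NK cells, had 9.70, 10.56 and 11.07 in SB00526221 arrays and 10.62, 10.69 and 11.47 in vehicle arrays. The groups overlapped through the J8 arrays, but each inhibitor array of J2 and J6 lay below the vehicle of its own experiment. The difference was -0.78 ± 0.26 (SE), at -0.71 in J2 and -0.86 in J6, and it ran from -0.87 to -0.72 when each array was left out in turn. Prdm1, the gene of the maturation factor Blimp-1, read 8.96, 9.13 and 9.38 in SB00526221 arrays against 9.16, 9.42 and 9.69 in vehicle arrays, a difference of -0.38 ± 0.12 (SE). Zeb2 lay at -0.51 ± 0.22 (SE), with its lowest levels of 9.43 and 9.17 in SB00526221 replicates 5 and 6. Cx3cr1, the fractalkine receptor, lay at -0.47 ± 0.22 (SE), and Cmklr1, the chemerin receptor, at -0.42 ± 0.14 (SE). With each array left out in turn, Prdm1 ran from -0.46 to -0.32 and Zeb2 from -0.69 to -0.40. Cx3cr1 then ran from -0.60 to -0.36 and Cmklr1 from -0.52 to -0.28. Fcgr3, the Fc receptor CD16 that triggers antibody-dependent killing, lay at -0.38 ± 0.18 (SE). It was below the vehicle mean of its own experiment in all 4 arrays that had one. The share of all genes that do so was not counted. S1pr5, which lets mature NK cells leave the marrow, went the other way at 0.51 but did not pass the unadjusted threshold.

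Cytotoxic granule genes showed little. Of 18 tested, Gzmk at -0.57 ± 0.26 (SE) and Ctsw at 0.31 ± 0.14 (SE) passed the unadjusted threshold. Gzmb, the main killing protease, had 11.73, 12.03 and 12.175 in SB00526221 arrays and 11.84, 11.68 and 12.27 in vehicle arrays. The groups overlapped throughout, and the difference was -0.14 ± 0.12 (SE) with a 95% interval of -0.39 to 0.11. Prf1 (perforin) lay at 0.05 and Gzma at 0.11. Of 29 NK receptor genes, Klrg1 and Fcgr3 passed the unadjusted threshold and the list median was -0.08.

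Of 10 tested cytokine and chemokine genes, 6 had a positive and 4 a negative difference, with a median of 0.27. At an unadjusted p under 0.05, 5 lay higher and Ccl9 lower, and none passed the adjusted threshold. Without vehicle replicate 2 the median was 0.15 and 2 members lay higher at the unadjusted threshold. That number was also 2 without SB00526221 replicate 1, and 3 without vehicle replicate 3. Ccl3, a chemokine that draws monocytes and T cells, read 12.2196, 12.33 and 12.77 in SB00526221 arrays and 11.88, 11.75 and 12.02 in vehicle arrays. All 7 inhibitor arrays lay above all vehicle arrays, and replicate 6, with its high macrophage markers, was the highest. The difference of 0.45 ± 0.12 (SE) was 0.53 in J2 and 0.35 in J6. Ccl4, its close relative, had 8.27, 8.79 and 9.43 in SB00526221 arrays and 8.03, 7.52 and 8.37 in vehicle arrays, a difference of 0.47 ± 0.19 (SE). Xcl1, the chemokine by which NK cells attract cross-presenting dendritic cells, had 11.10, 11.29 and 11.77 in SB00526221 arrays and 10.94, 10.31 and 10.66 in vehicle arrays. It showed no overlap and a difference of 0.52 ± 0.22 (SE), at 0.65 in J2 and 0.50 in J6. Tnf lay at 0.37 and Ltb at 0.38, whereas Ifng lay at -0.29 without passing the unadjusted threshold.

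Genes that mark group 1 innate lymphoid cells (ILC1), which also carry NK1.1, lay higher as well. Of 10 markers, 9 had a positive difference and 4 passed the unadjusted threshold, with a median of 0.38, and 2 passed it without vehicle replicate 1. Tmem176b, a membrane channel gene, had 8.639, 9.78 and 9.92 in SB00526221 arrays and 9.09, 8.91 and 8.625 in vehicle arrays. Replicate 3 of J6 lay apart from the other inhibitor arrays at 8.639, beside the J6 vehicle, and the difference was 0.68 ± 0.23 (SE). Cxcr6, the receptor that holds ILC1 in the liver, read 7.18, 8.09 and 8.24 in SB00526221 arrays against 7.32, 7.51 and 7.03 in vehicle arrays, a difference of 0.65 ± 0.25 (SE). Tmem176a lay at 0.61 ± 0.21 (SE) and Gpr183, a receptor for oxysterols, at 0.41 ± 0.15 (SE). Il7r lay at 0.43, and Rora at -0.05. The mean of the ILC1 markers was 8.03 to 8.98 in SB00526221 arrays and 8.11 to 8.51 in vehicle arrays, so the groups overlapped. Whether the sorted gate held more such cells was not tested.

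Of 32 mitotic genes listed, 31 had a probe set on the array and 17 passed the expression filter. All 17 had a negative difference, with a median of -0.54, and 11 lay lower at an unadjusted p under 0.05. The filter keeps dim genes that are bright in some arrays, so these counts describe the members that passed it and are no support for the list. Among all 31 without the filter, an alternative added after seeing the data, 28 had a negative difference, the median was -0.26 and 14 lay lower at the unadjusted threshold. The mean over the 31 genes was 6.33 to 6.81 in SB00526221 arrays and 7.43, 6.77 and 6.66 in vehicle arrays, which overlapped. For the 17 genes without vehicle replicate 1 the median was -0.36 and 1 member passed the unadjusted threshold, and 6 passed it without SB00526221 replicate 2 or without vehicle replicate 3. The list median was -0.59 within J2 and -0.42 within J6. Knl1, a scaffold of the kinetochore, had the lowest unadjusted p of the lower genes, at 0.000335 in limma. It read 6.00, 6.26 and 6.99 in SB00526221 arrays and 7.78, 7.36 and 6.70 in vehicle arrays, a difference of -0.72 ± 0.17 (SE). Top2a, the topoisomerase of dividing cells, read 6.43, 6.74 and 7.59 in SB00526221 arrays and 8.37, 7.65 and 7.15 in vehicle arrays, a difference of -0.65 ± 0.24 (SE) that was -0.60 in J2 and -0.50 in J6. Both overlapped across experiments but not within J2 or J6. Nusap1, a spindle protein, lay at -0.79 ± 0.30 (SE) and Kif23, a motor of cell division, at -0.55 ± 0.21 (SE). Mki67, the proliferation marker, lay at -0.76 and Ccna2 at -0.90. Of 25 DNA replication genes, E2f8 at -0.66 ± 0.29 (SE) and Rrm2 at -0.63 ± 0.23 (SE) passed the unadjusted threshold, and the median was -0.11. Without vehicle replicate 1 the differences were -0.43 for Top2a, -0.44 for Nusap1, -0.36 for Kif23 and -0.31 for E2f8. In the same order they were -0.82, -1.13, -0.67 and -0.96 without vehicle replicate 2. Rrm2 lay at -0.42 without vehicle replicate 3 and at -0.95 without vehicle replicate 2.

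The medians were 0.21 for 19 genes of Myc, polyamine and nutrient transport and 0.16 for 26 of ribosome biogenesis, with 1 and 2 members higher and none lower at the unadjusted threshold. Without vehicle replicate 1 they were 0.13 and 0.15 with no member past that threshold, and without vehicle replicate 3 they were 0.32 and 0.20, with 4 and 2 members higher. Within J6 they were 0.033 and 0.087, and within J2 0.23 and 0.25. Srm, which makes spermidine, read 9.45, 9.56 and 9.96 in SB00526221 arrays against 9.20, 8.75 and 9.26 in vehicle arrays, with no overlap and a difference of 0.54 ± 0.29 (SE). Rrp9 lay at 0.40 and Nop2 at 0.33, both of ribosome assembly. Of 22 immediate early genes, Nr4a1, which antigen and cytokine receptors switch on, passed the unadjusted threshold at 0.62 ± 0.21 (SE), and the list median was 0.20. Heat shock genes had a median of 0.12, with Hsph1 at 0.45 and Hspa5 at 0.39. The lists of major histocompatibility class I genes (13 tested), class II genes (8), circadian clock genes (13) and glucocorticoid-induced genes (9) had no member past the unadjusted threshold, and their medians were 0.05, -0.19, 0.06 and -0.08. The class II gene Cd74 stood at 9.04 and 11.35 in the J2 SB00526221 arrays and at 10.70 and 11.71 in the J2 vehicle arrays. Its difference of -0.51 turned to 0.20 with the mean of 4 dendritic cell genes (Clec9a, Xcr1, Flt3 and Cd209a) as a covariate. That alternative was chosen after seeing the data and uses genes of the same arrays. The part of dendritic cells in the class II values was not tested. Of 16 BCL2 family genes, Bnip3l passed the unadjusted threshold, and the median was 0.05.

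**Figure D4:**
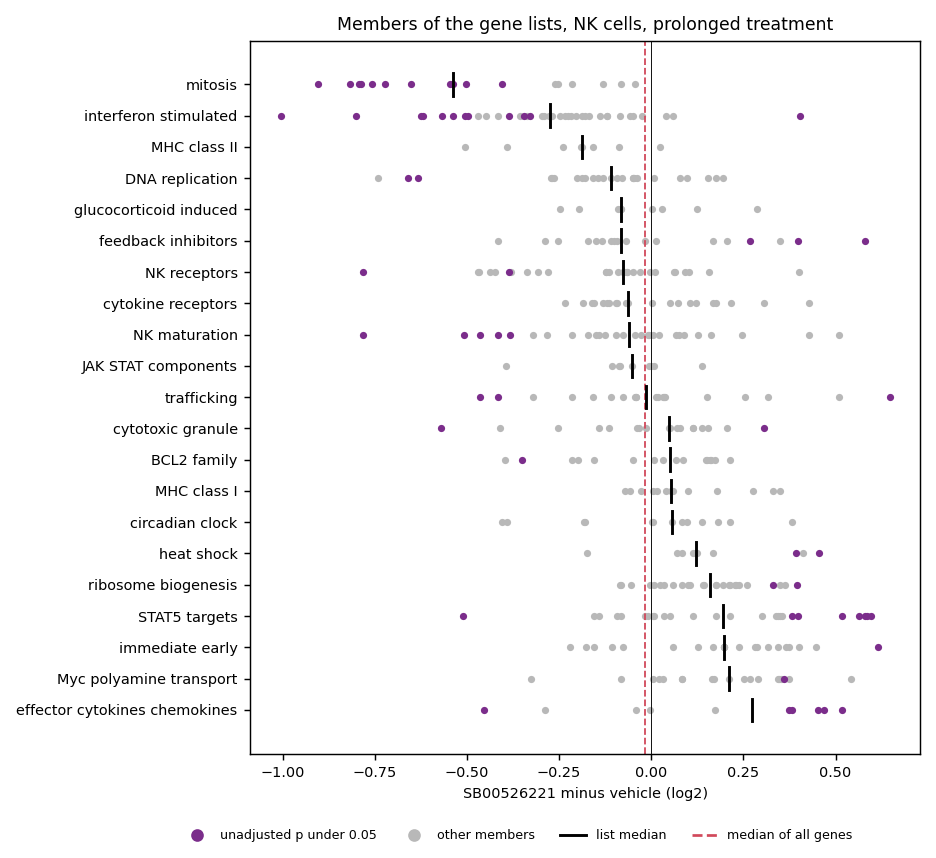
Difference SB00526221 minus vehicle (x axis, log2) of each tested member of the gene lists, one list per line, with the list median as a black bar and the median of all genes (-0.02) as a dashed line. Among the 21 lists plotted, which leave out the cell type markers, mitotic (-0.54) and interferon-stimulated genes (-0.27) have the lowest medians and effector cytokines (0.27) the highest. Purple points passed an unadjusted p of 0.05, and none passed the adjusted threshold.

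Some genes outside these lists had lower unadjusted p-values than most list members. Nfia, a transcription factor, had 7.27, 7.63 and 7.72 in SB00526221 arrays and 8.17, 8.08 and 8.05 in vehicle arrays, without overlap, at -0.52 ± 0.13 (SE). Pik3cb, a catalytic subunit of phosphoinositide 3-kinase, lay at -0.51 ± 0.13 (SE), and Swap70, which binds the lipids that such kinases make, at -0.44 ± 0.12 (SE). Chpt1, of phosphatidylcholine synthesis, lay at -0.81, Sgce at -0.67 and Borcs7 at -0.54. On the higher side, Mapk12, a p38 kinase, had 7.13, 7.25 and 7.38 in SB00526221 arrays and 7.05, 6.91 and 6.77 in vehicle arrays. Its groups did not overlap, and the difference of 0.40 ± 0.10 (SE) was 0.37 in J2 and 0.38 in J6. Dtx1, a regulator of Notch signalling, lay at 0.71 ± 0.20 (SE), Eif5a, a translation factor, at 0.72 ± 0.22 (SE) and Nfkbid, a nuclear inhibitor of NF-kB, at 0.45 ± 0.14 (SE). Rps15a lay at 0.55 and Pusl1 at 0.45. Without vehicle replicate 1, Eif5a lay at 0.36, and without vehicle replicate 3 at 1.01.

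The other inhibitors given on the prolonged schedule allow SB00526221 to be set against each of them without vehicle. SB00526221 minus SB00526222 (5 arrays) and minus SB00526226 (4 arrays) called 0 genes in limma, with 480 and 346 genes at an unadjusted p under 0.05. Among the genes with the lowest unadjusted p against SB00526222 were Snora21, a small nucleolar RNA, at 1.08 ± 0.25 (SE) and Peg10, an imprinted gene, at -0.70 ± 0.17 (SE). Against SB00526226 they included Entpd1, an ectonucleotidase, at 0.50 ± 0.13 (SE) and Top2a at -0.79 ± 0.21 (SE).

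SB00526221 minus SB00526228 (3 arrays, all J2) called 2 genes, or 0.0183% of those tested, both higher with SB00526221. Gzmb read 11.73, 12.03 and 12.175 with SB00526221, and 10.84, 11.07 and 10.65 with SB00526228. The groups did not overlap, and the difference was 0.82 ± 0.13 (SE), a 1.77-fold higher level, at an adjusted p of 0.0246 in limma. Cmklr1 read 9.57, 9.83 and 10.15 with SB00526221, and 9.01, 8.7 and 8.42 with SB00526228, a difference of 0.91 ± 0.15 (SE) at the same adjusted p. In the vehicle arrays Gzmb lay at 11.84, 11.68 and 12.27 and Cmklr1 at 10.08, 9.84 and 10.43. Marker means differed between the compared groups as well. Those of NK cells were 11.55 to 11.77 with SB00526228 and 11.71 to 12.09 with SB00526221. Those of dendritic cells were 6.81 to 8.56 with SB00526228 and 6.48 to 7.78 with SB00526221. The part of these differences in the 2 calls was not tested. Within J2 alone the differences were 0.89 for each of the 2 genes, and neither passed the threshold there. That test took its spread from all NK arrays. The count was 0 without SB00526221 replicate 1, without SB00526221 replicate 2 or without SB00526228 replicate 3, and 1 without SB00526221 replicate 3, SB00526228 replicate 1 or SB00526228 replicate 2. Among genes named against vehicle, Ifit1 differed by -0.03, -0.28 and -0.11 from SB00526222, SB00526226 and SB00526228, with SEs of 0.31, 0.28 and 0.34, and Klrg1 by -0.04, 0.32 and 0.12, with SEs of 0.26, 0.24 and 0.28. All were short of the adjusted threshold. Socs2 lay 0.93 higher than with SB00526228 and Xcl1 0.69 higher, again short of it.

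The last comparison sets the prolonged schedule against NK cells taken 4 h after the last of 3 treatments with SB00526221. The 2 arrays of that schedule are both J2, and the number of treatments and the hours since the last one cannot be told apart. That schedule has no vehicle array of NK cells, so an effect of the inhibitor and one of the schedule itself cannot be told apart either. Of the genes tested, 30 rose (0.274%) and 35 fell (0.319%) in the prolonged arrays relative to the 4 h arrays, and 1101 passed an unadjusted p of 0.05. The test within J2 alone compared only J2 arrays but took its spread from all NK arrays. The count rests on few arrays: it was 0 without 4 h replicate 2, 5 without 4 h replicate 1, 34 and 23 without SB00526221 replicates 1 and 2, 120 without SB00526221 replicate 6, and 15 within J2 alone.

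By list, 2 of 26 STAT5 targets, 1 of 16 BCL2 family genes, 2 of 19 genes of Myc, polyamine and nutrient transport and 1 of 26 ribosome biogenesis genes rose, and none of these 4 lists had a member that fell. Their medians were 0.41, -0.0058, 0.39 and 0.51, against -0.03 over all genes. Srm had 9.45, 9.56 and 9.96 in the prolonged arrays and 7.57 and 7.37 at 4 h, a rise of 2.139 ± 0.35 (SE), or 4.41-fold, with an adjusted p of 0.00403 in limma. The STAT5 target Socs2, a feedback inhibitor, had 8.12, 8.6 and 9.20 in the prolonged arrays and 7.34 and 6.66 at 4 h, a rise of 1.76 ± 0.27 (SE). Bcl2 had 10.82, 11.33 and 11.53 in the prolonged arrays and 10.01 and 9.31 at 4 h, a rise of 1.59 ± 0.29 (SE), or 3.02-fold. The vehicle arrays of the prolonged schedule lay beside the prolonged inhibitor arrays for both, at 8.706, 8.90 and 8.675 for Socs2 and 11.28, 11.33 and 11.17 for Bcl2. Tmem176b rose by 1.69 ± 0.28 (SE) and Tmem176a by 1.45 ± 0.25 (SE). The amino acid transporter gene Slc7a5 rose by 1.44 ± 0.33 (SE), and Mybbp1a, Tsr1 and Mettl1, of ribosome and RNA maturation, by 1.23, 0.99 and 1.13. Trgv1, a gene segment of the gamma T cell receptor, rose by 1.70 ± 0.30 (SE) and Cd3e, of the T cell receptor complex, by 1.35 ± 0.29 (SE). The mean of 9 T cell markers was 7.86 to 8.43 in the prolonged arrays and 7.81 and 7.91 at 4 h, and its part in these values was not tested.

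Of 28 genes of NK maturation, 4 fell, as did 2 of 22 immediate early genes and 2 of 9 glucocorticoid-induced genes, and none of these 3 lists had a member that rose. Their medians were -0.17, -0.34 and -0.53. Klrg1 had 9.70, 10.56 and 11.07 in the prolonged arrays and 11.44 and 11.68 at 4 h, with no overlap, and fell by 1.66 on the log2 scale (SE 0.32). The integrin gene Itgam, of mature NK cells, fell by 1.15 (SE 0.20) and Prdm1 by 0.92 (SE 0.15). The glucocorticoid-induced genes Tsc22d3 and Sgk1 fell by 1.40 (SE 0.25) and 1.10 (SE 0.21), and both were highest among prolonged arrays in SB00526221 replicate 6 (9.86 and 8.89). The phosphatase gene Dusp2 had 8.56, 9.40 and 11.24 in the prolonged arrays and 10.73 and 10.68 at 4 h. It fell by 1.73 (SE 0.36), although SB00526221 replicate 6, at 11.24, lay above both 4 h arrays. H1f2, a linker histone gene, fell by 1.83 (SE 0.34), and Rgs2, which damps G protein signals, by 1.44 (SE 0.25). Gpx8, a glutathione peroxidase gene, had 7.36, 8.17 and 9.17 in the prolonged arrays against 8.629 and 9.93 at 4 h, which overlapped, and fell by 1.70 (SE 0.40). That call held in 2 of the 9 fits with 1 array left out, and the difference was -1.05 without 4 h replicate 2 and -2.35 without 4 h replicate 1.

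The largest fall was that of Mir142, a miRNA gene of blood cells. Its probe set read 6.997, 8.24 and 9.92 in the prolonged arrays, 9.69 and 9.63 at 4 h, and 6.24, 5.90 and 8.655 in the vehicle arrays. It fell by 2.66 (SE 0.52), with an adjusted p of 0.0154 in limma. Its prolonged J2 arrays were lower than those of J6 and J8 in the inhibitor group and than that of J6 in vehicle, and SB00526221 replicate 6 again lay above the 4 h arrays. The sources used here do not say which form of the transcript the probe set measures. The mature miRNAs of the gene, on chromosome 11 plus strand of GRCm38.p6, are shown from RefSeq with their seeds (bases 2 to 8) in capitals, at chr11:87756867-87756887 for the 5p arm and chr11:87756903-87756925 for the 3p arm.
mmu-miR-142a-5p: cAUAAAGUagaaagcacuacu
mmu-miR-142a-3p: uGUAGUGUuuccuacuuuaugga
The seeds differ, so the arms belong to separate seed groups.

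**Figure D5:**
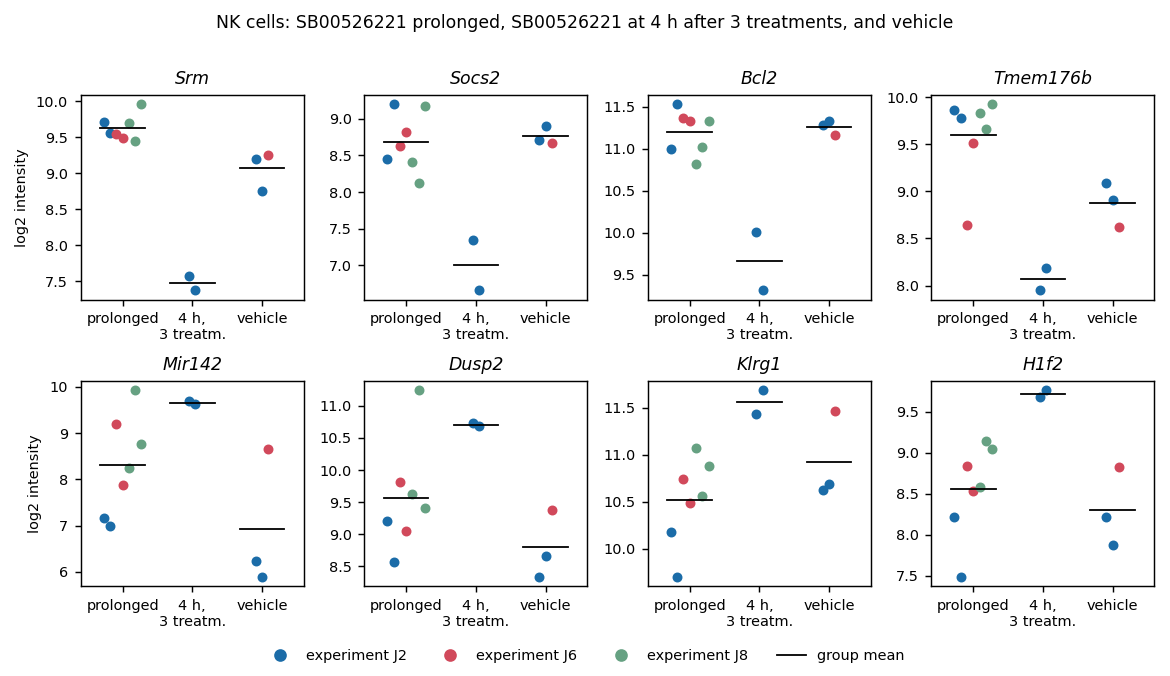
Log2 intensity of 8 genes in prolonged SB00526221, SB00526221 at 4 h after 3 treatments, and vehicle of the prolonged schedule, with the experiment as colour and the group mean as a line. Srm, Socs2, Bcl2 and Tmem176b are lowest at 4 h. For Mir142 and Dusp2, 1 prolonged array (9.92 and 11.24) lies above the 4 h arrays.

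Whether the prolonged difference between SB00526221 and vehicle was larger or smaller in NK cells than in other spleen cells was tested as an interaction, in a separate fit for each pair of cell types over only their prolonged SB00526221 and vehicle arrays. The NK differences given here are those of these fits. The interaction called 0 genes against macrophages (288 at an unadjusted p under 0.05), 0 against dendritic cells (835) and 0 against CD4 T cells (100) in limma, and the lowest adjusted p was 0.377, for dendritic cells. Socs3 stood out against macrophages, with 0.33 ± 0.16 (SE) in NK cells and -0.52 ± 0.12 (SE) in macrophages, an unadjusted p of 0.000328 in limma and an adjusted p of 0.997. Fcgr3 differed by -0.52 in NK cells and by 0.28 in dendritic cells, with an interaction of -0.81 ± 0.16 (SE). Xcl1 differed by 0.58 in NK cells and -0.27 in CD4 T cells, with an interaction of 0.84 ± 0.22 (SE). Irf7, which fell with SB00526221 in macrophages (-0.55, adjusted p of 0.0367 in limma), lay at -0.22 in NK cells, and the interaction of 0.33 was short of the threshold. Knl1, which also fell in macrophages (-0.88, adjusted p of 0.00294 in limma), lay at -0.66 in NK cells, and its interaction of 0.21 did not pass either.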

How the data were processed

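Gene expression was measured on Affymetrix Mouse Gene 1.0 ST arrays, 1 array per sorted sample. The authors deposited linear intensity values made with RMA in Affymetrix Power Tools, per the submitters' processing notes. Neither software versions nor the annotation release, nor which arrays went through RMA together, could be read from these notes: not given in the sources used here. No further scaling was applied.

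Of 24922 probe sets, 21425 carried 1 gene symbol in the platform annotation, 1399 several and 2098 none, and 21347 matched RefSeq by gene ID. The probe set with the highest mean was kept for each of 19752 genes, and genes above the array median in at least 3 NK arrays were tested (10957). Values were log2 transformed without a pseudocount. One linear model over the 27 NK arrays (limma 3.58.1 in R 4.3.3), with a term for each of 4 experiments, gave moderated two-sided tests with Benjamini-Hochberg adjustment over all genes and a threshold of 0.05. Interactions with other cell types used the animal as a random block. The procedure was tested on simulated data.

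Genes were named by a rule: up to 4 members of each of 21 lists by moderated statistic, the 8 highest and 8 lowest genes, the leading genes of each other contrast, and a fixed set of JAK-STAT and NK genes. Ccl9, Ccna2, Cd3e, Clec9a, Gpr183, Gzma, Ifng, Mettl1, Mki67, Mybbp1a, Prf1, Rgs2, Rora, S1pr5, Sgk1, Slc7a5, Tmem176a, Tnf and Tsr1 were added with their values in view. The members and lists were chosen with earlier results of these data known. Alternatives were no experiment term, quantile normalization, no filter, other sets of arrays, array weights, a random block, a trended prior, single probe sets and each array left out. Promoter and miRNA sequences are from RefSeq (GRCm38.p6).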

Additional observations from a re-analysis of the deposited data

Results flagged for a closer look

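Among the 7 SB00526221 arrays, 9 of 103 genes and lists examined had 1 array far from the others, and 6 of the 9 were replicate 6. The cut-off gives about 1 in 20 for independent items and arrays of 1 population. These arrays come from J2, J6 and J8 and the items share genes, so that rate is no measure of chance here. In replicate 6, Ccl3 was highest at a log2 intensity of 12.77, with the next array at 12.41. The list means of that array were also apart for macrophage markers (7.45), platelet markers (6.93), immediate early genes (9.21) and glucocorticoid-induced genes (9.02), all high, and for NK receptors (10.31), which were low. Replicate 5 was low for the JAK and STAT components (9.90). Replicate 2 was high for dendritic cell markers (7.78), and replicate 3 was low for Tmem176b (8.639).

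Another 10 genes were picked out because prolonged SB00526221 differed from SB00526221 at 4 h after 3 treatments in the limma test. The log2 differences, prolonged minus 4 h, were 2.139 for Srm, 1.76 for Socs2, 1.70 for Trgv1, 1.69 for Tmem176b and 1.59 for Bcl2. On the lower side they were -1.66 for Klrg1, -1.70 for Gpx8 (-1.05 without 4 h replicate 2 and -2.35 without 4 h replicate 1), -1.73 for Dusp2, -1.83 for H1f2 and -2.66 for Mir142.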

How the results depend on the processing

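The contrast of SB00526221 with vehicle called 0 genes under every alternative run in limma. The alternatives within J2 and within J6 compared only arrays of that experiment but took their spread from all NK arrays. Genes at an unadjusted p under 0.05 numbered 1298 without the experiment term, 556 after quantile normalization, 772 without the filter, 226 with only the 10 arrays, 550 without J8, 883 with experiment as a random block, 377 within J2, 133 within J6, 1210 with array weights, 509 with a trended and robust prior and 560 over single probe sets. Alternatives chosen after seeing the data gave 461 without SB00526221 replicates 5 and 6, 346 without vehicle replicate 1 and J8, and 649 with 4 dendritic cell genes as a covariate. Against SB00526228 the count was 4 without the experiment term, 0 within J2 and 0 to 3 with each array left out. Between schedules it was 15 within J2 and 0 to 120 with each array left out. The NK minus macrophage interaction gave 0 to 1.

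Of 65 genes set against vehicle, 50 kept their direction under all 23 alternatives, and the cause of the reversals below was not tested. Bcl2 was -0.061 without the experiment term, -0.020 after quantile normalization, -0.029 with the random block, -0.039 within J2, -0.025 with array weights and -0.090 to 0.084 with each array left out. Socs2 was 0.029 after quantile normalization, 0.034 with only the 10 arrays and without J8, 0.032 with the dendritic covariate, 0.023 within J2, 0.051 within J6, 0.086 without replicates 5 and 6 and -0.15 to 0.079 with each array left out. Stat5a was -0.098 with the 10 arrays and without J8, -0.12 within J2, -0.061 within J6, -0.057 with weights, -0.033 without replicates 5 and 6, -0.13 without vehicle replicate 1 and J8 and -0.047 to 0.053 with each array left out. Stat5b was -0.050 with the 10 arrays and without J8, -0.051 with weights, -0.29 within J6, -0.0047 without replicates 5 and 6, -0.19 without vehicle replicate 1 and J8 and -0.15 to 0.17 with each array left out. Irf7 was 0.048 after quantile normalization, 0.027 with the dendritic covariate and -0.13 to 0.20 with each array left out, and Jak1 ran from -0.20 to 0.040. Within J6, Ccnd3 was -0.21, Il2rb -0.13, Jak2 0.10, Myc -0.099 and Pim1 -0.047. Ncr1 was 0.029 within J2, Gzmb 0.034 without the experiment term, Cd74 0.20 with the dendritic covariate and Tyk2 -0.072 without vehicle replicate 1 and J8.

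No paired analysis was possible because the number after the # sign is 1 in every title and the labels pair no NK arrays. With 3 vehicle arrays, and none in J8, the median standard error of 0.15 limits what could be called.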
